A study of Sus scrofa with 2 samples.

Results

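The secretin receptor gene SCTR, the chloride and bicarbonate channel gene CFTR, the sodium bicarbonate cotransporter gene SLC4A4 and the potassium channel subunit gene KCNE3 were followed across the nucleus classes of the pig pancreas. These 4 genes were selected by symbol from the 31908 genes of the matrices, and all 4 were measured. Single-nucleus RNA sequencing, in which each RNA molecule carries a barcode for its nucleus and a unique molecular identifier (UMI), had been performed on 1 bama pig of the WT group and 1 bama pig of the PIGinH11 group. The PIGinH11 pig carried a knock-in of the transgenes GIPRdn, hIAPP and PNPLA3 I148M at the H11 locus, and the WT pig was wild-type. Both animals were 18 months old. They had eaten control diet for 6 months. For the next 12 months both were given a high-fat and high-sugar diet, in which 10% lard and 37% sucrose were added to 53% of the control diet, so the WT pig is a control for genotype and not for diet. Each library came from 1 tissue piece of about 0.2 g and measures nuclear RNA. Since each group had 1 library, no test between the groups was possible, and the 95% intervals given cover counting error only, not differences between animals.

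Pancreatic ducts add a bicarbonate-rich fluid to the enzymes released by acinar cells. Secretin binds its receptor on the basolateral side of ductal cells, which raises cyclic AMP and opens CFTR in the apical membrane. The cotransporter NBCe1, encoded by SLC4A4, carries bicarbonate into the cell from the blood side, and basolateral potassium channels keep the membrane potential that drives secretion. KCNE3 encodes a beta subunit that assembles with the channel protein KCNQ1. On Sscrofa11.1, the RefSeq gene spans are chr15:31707755-31782193 for SCTR, chr18:28627717-28818209 for CFTR, chr8:67768955-68177213 for SLC4A4 and chr9:8810716-8822191 for KCNE3. They measure 74.4, 190.5, 408.3 and 11.5 kb, in this order.

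The deposited matrices held 55784067 UMIs for WT and 26228811 for PIGinH11. The WT library gave 11854 retained nuclei with a median of 3018.5 UMIs, and the PIGinH11 library gave 13126 with a median of 1167 UMIs. Levels are given as CPM, the UMIs of a gene scaled to 1000000 UMIs of the same class and library. Digestive enzymes took 9.63% of UMIs in WT and 4.78% in PIGinH11, ribosomal protein genes 0.667% and 0.335%, and mitochondrial genes 0.137% and 0.0482%. The libraries shared 60 barcode sequences, of which 46 were retained in both. Classes were rebuilt by clustering without the 4 genes and are therefore called ductal-like, acinar-like and so on. The ductal-like class had 2152 nuclei in WT (18.2% of the library, median 3405 UMIs) and 2193 in PIGinH11 (16.7%, median 1026 UMIs). All 17 ductal markers in the matrices were found in it, PKHD1 and SOX9 among them, and their summed level was 31973 CPM in WT and 29689 in PIGinH11, against 958 and 998 in acinar-like nuclei. The 13 acinar markers were all detected as well, at a summed 1715 and 2434 CPM, against 21723 and 20214 in acinar-like nuclei.

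SCTR, the receptor at the start of this pathway, was far higher in ductal-like nuclei than in any other class of at least 20 nuclei, and it led all 3 joint clusters of this class although it took no part in the clustering. Its level there was 2416 CPM in WT (95% Poisson interval 2384 to 2450, 20777 UMIs) and 1694 in PIGinH11 (1650 to 1739, 5623 UMIs). In acinar-like nuclei it was 20.0 in WT and 22.4 in PIGinH11, which is 0.827% and 1.32% of the ductal-like level. The median ductal-like nucleus held 7 SCTR UMIs in WT and 2 in PIGinH11. A SCTR UMI was present in 96.2% of WT and 75.1% of PIGinH11 ductal-like nuclei. With every nucleus thinned to 500 UMIs, the shares were 67.1% (65.1 to 69.1) and 52.0% (49.9 to 54.1). Thinning equalises the UMIs counted per nucleus, but not the mix of originally shallow and deep nuclei. Before thinning, 139 of 2152 WT and 1066 of 2193 PIGinH11 ductal-like nuclei had fewer than 1000 UMIs.

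A second class also carried SCTR in both libraries. In delta-like nuclei, the somatostatin-producing islet class, the level was 275 CPM in WT (173 to 417, 22 UMIs in 26 nuclei) and 337 in PIGinH11 (250 to 444, 50 UMIs in 61 nuclei). These UMIs were spread over 12 of 26 and 24 of 61 nuclei, and no nucleus held more than 3 in WT or 5 in PIGinH11. By comparison, 5.38% of beta-like and 4.71% of alpha-like nuclei of WT had a SCTR UMI, although these were as deep or deeper (median 4369 and 2901 UMIs, against 2884.5 in delta-like nuclei). In PIGinH11, the shares were 39.3% of delta-like, 6.52% of beta-like and 7.69% of alpha-like nuclei. The other 3 genes did not stand out there. SLC4A4 in delta-like nuclei was 2.44% of its ductal-like level in WT and 2.45% in PIGinH11, whereas SCTR was at 11.4% and 19.9%. A KCNE3 UMI was found in 0 of 26 delta-like nuclei of WT, which allows a share of nuclei with a UMI of up to 11.5% and sets no limit on expression, and in 2 of 61 of PIGinH11. CFTR was found in 2 of 26 and 3 of 61.

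CFTR, the apical anion channel through which chloride and bicarbonate leave the ductal cell, showed the largest difference of the 4 genes between the libraries. Its level in ductal-like nuclei was 2069 CPM in WT (2039 to 2100, 17793 UMIs) and 473 in PIGinH11 (450 to 497, 1569 UMIs). The median ductal-like nucleus of WT held 5 CFTR UMIs and that of PIGinH11 held 0. A CFTR UMI was found in 90.9% of WT and 33.2% of PIGinH11 ductal-like nuclei, and at 500 UMIs per nucleus in 55.3% (53.2 to 57.4) and 16.5% (14.9 to 18.1). By UMIs, with no correction for length, CFTR took place 36 among all genes of these nuclei in WT and place 279 in PIGinH11.

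Outside the ductal-like class CFTR was low in both libraries, and the libraries were much closer in acinar-like nuclei. There the level was 66.6 CPM in WT (63.7 to 69.5) and 54.9 in PIGinH11 (51.3 to 58.7). The acinar-like level was thus 3.22% of the ductal-like level in WT and 11.6% in PIGinH11, while the other 3 genes stayed between 0.827% and 2.13% in both libraries. In endothelial-like nuclei, which should lack CFTR, 74.3 CPM were counted in WT and 24.7 in PIGinH11. At 500 UMIs per nucleus, 4.21% of acinar-like and 3.58% of endothelial-like nuclei of WT had a CFTR UMI, and 2.63% and 2.34% of those of PIGinH11. The intervals of the endothelial-like shares, 1.73 to 6.49% and 1.25 to 3.97%, include the acinar-like shares. By level, too, acinar-like CFTR of WT was not above that of endothelial-like nuclei, but in PIGinH11 it was, with intervals that were apart (51.3 to 58.7 against 16.8 to 35.1 CPM). The WT order rested on few nuclei, since 2 of 279 endothelial-like nuclei held 25.6% of their CFTR UMIs. Without the 2 highest nuclei of each class, the WT level was 56.1 CPM in endothelial-like and 66.1 in acinar-like nuclei. Lower CFTR counts in PIGinH11 were not confined to ductal-like nuclei. In log2 units, PIGinH11 over WT gave -0.28 (-0.40 to -0.16) in acinar-like nuclei, on 2012 WT and 851 PIGinH11 UMIs. The other classes concerned held few CFTR UMIs. The ratio was -1.59 (-2.23 to -0.98) in endothelial-like nuclei, on 82 WT and 31 PIGinH11 UMIs. In alpha-like nuclei it was -2.77 (-4.48 to -1.42), on 36 and 5. Macrophage-like (-2.66, 12 and 2 UMIs), Schwann-like (-1.73, 20 and 7) and stellate-like (-0.89, 45 and 15) intervals also lay below 0. The part of free RNA in these counts was not tested. In WT, 2 nuclei held 80% of Schwann-like and 50% of alpha-like CFTR UMIs. Delta-like, gamma-like and unnamed cluster 10 ratios were above 0, with intervals including 0.

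SLC4A4, which loads bicarbonate across the basolateral membrane, was the gene in place 2 by UMIs, with no correction for length, in ductal-like nuclei of both libraries. It took 2.67% of all their UMIs in WT and 2.06% in PIGinH11, that is 26697 (26588 to 26807) and 20599 (20445 to 20754) CPM. The median nucleus held 82 SLC4A4 UMIs in WT and 15 in PIGinH11, and the highest count in a single nucleus was 599 and 542. A UMI was present in 99.9% and 99.7% of ductal-like nuclei, and still in 99.4% and 99.0% at 500 UMIs per nucleus. In acinar-like nuclei the level was 394 and 418 CPM, or 1.47% and 2.03% of the ductal-like level. At 500 UMIs per nucleus, 24.0% of acinar-like and 24.0% of endothelial-like nuclei of WT had a SLC4A4 UMI, as did 24.6% and 29.5% of those of PIGinH11. The interval of the endothelial-like share included the acinar-like share in WT (19.1 to 29.5) and lay above it in PIGinH11 (25.8 to 33.5). The part of free RNA in these shares was not tested.

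KCNE3, the beta subunit of the basolateral potassium channel, was the only 1 of the 4 genes with a higher level in PIGinH11 than in WT over all ductal-like nuclei. The level was 408 CPM in WT (394 to 421, 3505 UMIs) and 550 in PIGinH11 (526 to 576, 1827 UMIs). In nuclei as sequenced, a KCNE3 UMI was more frequent in WT (65.2%) than in PIGinH11 (46.0%), but at 500 UMIs per nucleus the order turned, with 18.4% (16.8 to 20.1) in WT and 23.7% (21.9 to 25.6) in PIGinH11. Acinar-like nuclei had 7.58 and 11.7 CPM. Divided by gene span as a rough correction for length, the ductal-like levels of WT were 65.4 CPM per kb for SLC4A4, 35.5 for KCNE3, 32.5 for SCTR and 10.9 for CFTR. In PIGinH11 they were 50.5, 48.0, 22.8 and 2.48, in the same order of genes. CFTR was the lowest of the 4 on this scale in both libraries. Whether UMIs of these libraries scale with gene span was not tested, and before the correction KCNE3 had the fewest UMIs of the 4 in WT.

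Relative to the ductal-like level, endothelial-like nuclei carried more KCNE3 than the other 3 genes. The level there was 31.7 CPM in WT (22.1 to 44.1) and 55.0 in PIGinH11 (42.8 to 69.6), or 7.78% and 9.99% of the ductal-like level. For the other 3 genes in these nuclei the percentages were between 1.42% and 5.23%. Endothelial-like nuclei took place 5 for KCNE3 in WT and place 3 in PIGinH11, with intervals overlapping those of neighbouring classes. Lymphocyte-like, Schwann-like and macrophage-like nuclei of WT were higher, at 112, 47.9 and 38.3 CPM. Without the 2 highest nuclei of each class, these levels were 0, 7.45 and 0, against 25.7 in endothelial-like nuclei. In PIGinH11, unnamed cluster 10 was higher (72.7 CPM, 9 UMIs). At 500 UMIs per nucleus, KCNE3 was found in 1.08% of endothelial-like nuclei of WT (0.222 to 3.11) and in 3.24% of those of PIGinH11 (1.93 to 5.08), against 0.510% and 0.907% of acinar-like nuclei, so only the PIGinH11 interval lay above the acinar-like share. The KCNE3 UMIs came mainly from the larger of the 2 endothelial clusters (joint cluster 9, led by FLT1, TEK and EMCN). In it, 11.7% of 214 WT nuclei and 11.4% of 298 PIGinH11 nuclei had a KCNE3 UMI, against 2.58% and 1.86% of acinar-like nuclei. The other endothelial cluster (joint cluster 13) had KCNE3 in 1 of 65 WT nuclei and in 15 of 257 PIGinH11 nuclei.

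**Figure D1:**
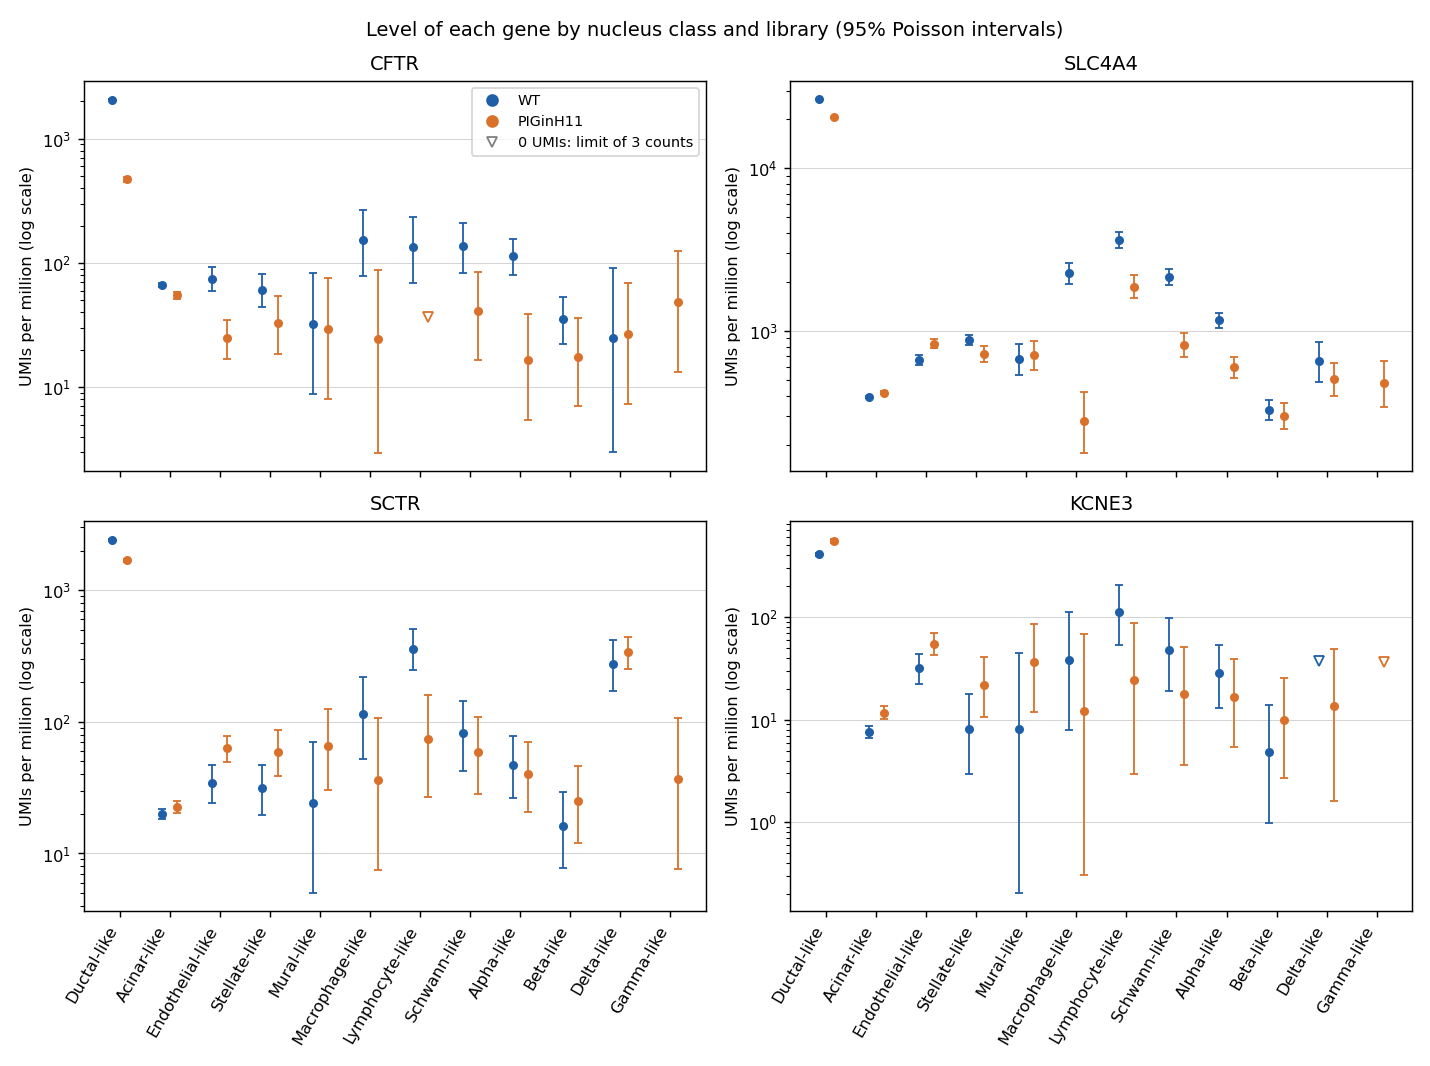
The level of each gene in CPM (vertical axis, log scale) is plotted for each nucleus class with at least 20 nuclei in a library, for WT (blue) and PIGinH11 (orange), with 95% Poisson intervals as bars; open triangles mark the limit of 3 counts where no UMI was found. Of these classes, the ductal-like class is highest for every gene, from 408 to 26697 CPM. SCTR also stands out in delta-like nuclei (275 and 337). The blue lymphocyte-like SCTR point is higher (359), but 31 of its 32 UMIs lie in 2 nuclei. The orange CFTR point of ductal-like nuclei (473) lies far below the blue one (2069).

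Among classes with at least 20 nuclei in a library, ductal-like nuclei came first for each of the 4 genes in both libraries, and their intervals did not overlap those of the next class. In smaller clusters the intervals were too wide to tell, as for KCNE3 in an endocrine cluster of 14 PIGinH11 nuclei (260 CPM, 53.7 to 760.5, on 3 UMIs). In both libraries the ductal-like level of all 4 genes exceeded the acinar-like level at least 4-fold, a size reached by 5.51% of the 17099 genes compared. These genes are among those by which ductal cells are recognised, so this count describes them and is no independent evidence. The fold over acinar-like nuclei was 121 in WT and 75.5 in PIGinH11 for SCTR, 67.8 and 49.3 for SLC4A4, 53.8 and 46.9 for KCNE3, and 31.1 and 8.61 for CFTR. Below the ductal-like class, all neighbouring classes in the order of CFTR and of KCNE3 had overlapping intervals.

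Some small classes took their apparent levels from very few nuclei. Lymphocyte-like nuclei of WT were second for SLC4A4, with 3645 CPM. However, 2 of their 29 nuclei held 85.5% of these UMIs, and the level of the remaining nuclei was 652. The same 29 nuclei had 32 SCTR UMIs, of which 31 lay in 2 nuclei. In macrophage-like nuclei of WT the SLC4A4 level was 2275 CPM and 598 without the 2 highest nuclei, and in Schwann-like nuclei of WT it was 2160 and 498. The median nucleus of these 3 classes held 1 or 2 SLC4A4 UMIs. All 10 KCNE3 UMIs of lymphocyte-like nuclei of WT lay in 2 nuclei as well. CFTR in macrophage-like nuclei of WT was not concentrated in this way. It was second in its order at 153 CPM, on 12 UMIs in 10 of 24 nuclei with at most 2 UMIs each, and at 117.5 CPM without the 2 highest nuclei. Its interval overlapped that of the next class. In PIGinH11, only 1 of 34 macrophage-like nuclei had CFTR (24.3 CPM, place 12), so the WT level was not repeated there.

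Between the libraries, the 4 genes did not move together. In ductal-like nuclei the log2 ratio, taken as PIGinH11 over WT, was -2.13 for CFTR (-2.21 to -2.06), -0.51 for SCTR (-0.56 to -0.47), -0.37 for SLC4A4 (-0.39 to -0.36) and 0.43 for KCNE3 (0.35 to 0.52). The median over the 11851 genes with at least 50 UMIs in this class was 0.12, and 36 of these genes (0.304%) had a lower ratio than CFTR, 1219 a lower ratio than SCTR and 1799 a lower ratio than SLC4A4. CFTR was the only member at least 2-fold lower in PIGinH11, as were 2.84% of all genes compared, and no member was at least 2-fold higher, as were 10.5%. The summed level of the 15 digestive enzymes in the same nuclei was 3.31% of UMIs in WT and 0.995% in PIGinH11, ribosomal protein genes took 0.404% and 0.227%, and mitochondrial genes 0.0779% and 0.0300%. Without the barcodes found in both libraries the ratios were -2.14, -0.51, -0.37 and 0.43, in the same order. The part of RNA quality and enzyme RNA in the ratios was not tested, and with 1 animal in each group, genotype, animal and library cannot be told apart.

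The lower CFTR level in PIGinH11 was present in every subset of ductal-like nuclei examined. It was lower in all 3 joint clusters that make up the class (log2 ratio -2.07 to -2.39) and in all 7 subclusters found by clustering ductal-like nuclei again (-1.87 to -2.49). Nuclei were also compared within 4 ranges of depth. CFTR was 1442 CPM in WT and 325 in PIGinH11 in nuclei with fewer than 1000 UMIs, and 2192 and 678 in nuclei with 4000 UMIs or more. The log2 ratios of the 4 ranges lay between -2.15 and -1.69. Within ranges of the enzyme share that held at least 20 nuclei of each library, they lay between -4.49 and -1.46. The value of -4.49 (-7.53 to -2.63) rested on 2 CFTR UMIs in 23 PIGinH11 nuclei. Without the 2 subclusters that matched acinar markers best, the ratio was -2.08 in the remaining 1540 WT and 1436 PIGinH11 nuclei.

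The differences of SLC4A4 and KCNE3 changed with depth. SLC4A4 took a larger part of the RNA in deeper nuclei of both libraries, from 15141 CPM below 1000 UMIs to 28696 at 4000 UMIs or more in WT (1.90-fold) and from 13271 to 26979 in PIGinH11 (2.03-fold). At like depth the libraries came closer. In nuclei with 2000 to 4000 UMIs the SLC4A4 level was 23997 in WT and 23986 in PIGinH11, a log2 ratio of -0.00 (-0.02 to 0.02), and over the 4 ranges the ratio averaged -0.078, against -0.37 for all nuclei together. KCNE3 went the other way with depth, from 735 to 412 CPM in PIGinH11 and from 493 to 368 in WT. Its log2 ratio was 0.58 (0.17 to 1.01) in the shallowest range, 0.26 and -0.20 in the next ranges and 0.16 (-0.02 to 0.34) in the deepest, so its direction was not stable at equal depth. SCTR was lower in PIGinH11 in all 4 ranges, by -0.25 (-0.46 to -0.04) in the shallowest and -0.66 (-0.75 to -0.57) in the deepest. The enzyme share was lower in deeper nuclei as well, at 11% of UMIs in the shallowest and 2.34% in the deepest ductal-like nuclei of WT, and at 1.78% and 0.481% in PIGinH11. Within the 4 ranges of the enzyme share, SLC4A4 was lower in PIGinH11 by more than in all nuclei in 3 of them, with log2 ratios from -0.35 to -2.14, and SCTR was lower in all 4, from -0.46 to -1.30. KCNE3 was higher in 3 of these ranges (0.44 to 1.02) and lower in the one with the most enzyme RNA (-1.35), which held 23 PIGinH11 nuclei.

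**Figure D2:**
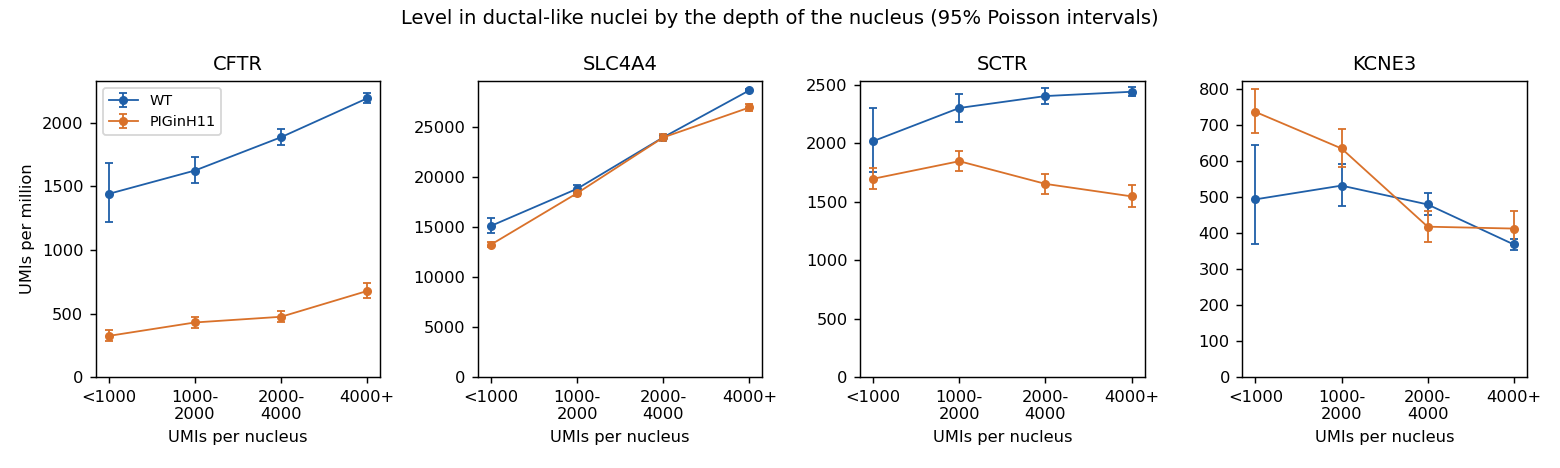
Each panel gives the level of a gene in ductal-like nuclei in CPM (vertical axis, from 0) for 4 ranges of UMIs per nucleus (horizontal axis), for WT (blue) and PIGinH11 (orange), with 95% Poisson intervals as bars. The SLC4A4 lines run close together (15141 and 13271 CPM in the shallowest, 28696 and 26979 in the deepest range), the CFTR lines stay apart (1442 against 325 in the shallowest and 2192 against 678 in the deepest range), and the KCNE3 lines cross.

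**Figure D3:**
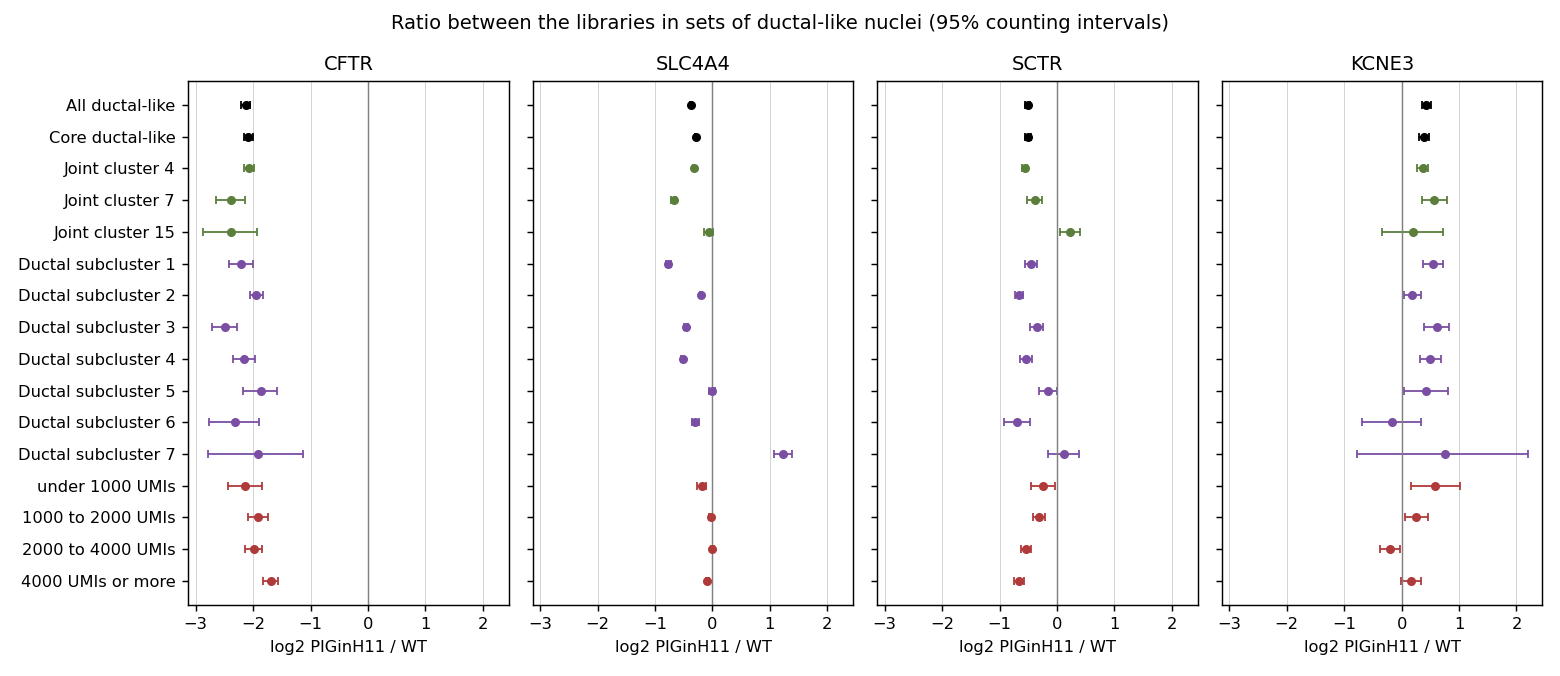
The log2 ratio of PIGinH11 over WT (horizontal axis) of each gene is plotted for all ductal-like nuclei and the core without acinar-like subclusters (black), the 3 joint clusters (green), the 7 ductal subclusters (purple) and the 4 depth ranges (red), with 95% counting intervals as bars. All CFTR points lie between -2.49 and -1.69, whereas KCNE3 has points on both sides of 0 and SLC4A4 lies above 0 in ductal subcluster 7 (1.23).

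A small group of ductal-like nuclei had little SLC4A4 and KCNE3 but a full level of SCTR. This was ductal subcluster 7, with 31 nuclei in WT and 38 in PIGinH11 and with LGR5, a receptor for R-spondins known as a stem cell marker in other epithelia, as its leading gene. LGR5 itself was found at 1074 and 818 CPM there, against at most 25.1 in the other 6 subclusters. The ductal keratin gene KRT7 was at 524 and 606, against 42.5 to 221 elsewhere, while several other ductal markers, but not SOX9, were lower there than in any other subcluster of the same library. PKHD1 was at 5146 and 2877 CPM, although present in 96.8% and 94.7% of the nuclei. SPON1 was at 281.5 and 182, against at least 981 elsewhere, EFHC2 at 118 and 197, against at least 481, and DCDC2 at 589 and 485, against at least 744. SCTR was at 2449 CPM in WT and 2650 in PIGinH11, which compares with 2416 and 1675 in the other ductal-like nuclei. SLC4A4 was at 4000 and 9374, against 27108 and 20826 in the others, a 6.78-fold lower level in WT and a 2.22-fold lower level in PIGinH11. KCNE3 was at 72.0 (11 UMIs) and 121 (8 UMIs), against 414 and 559, a log2 ratio to the others of -2.52 (-3.53 to -1.68) in WT and -2.21 (-3.42 to -1.22) in PIGinH11. CFTR was lower too, at 851 and 227, against 2091 and 478. The nuclei were not shallower than the rest, with medians of 5173 and 1344 UMIs against 3400 and 1020. It was also the only subcluster in which SLC4A4 was higher in PIGinH11 (log2 ratio 1.23, 1.06 to 1.39), on 611 and 619 UMIs. The enzyme share was 3.93% and 0.893%, within the range of the other subclusters. The subcluster was singled out after its values were seen.

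Among the other 6 subclusters, SLC4A4 ranged from 20527 to 30593 CPM in WT and from 12055 to 26666 in PIGinH11, and its highest level was in subcluster 2, the deepest large group. SCTR varied less, from 2104 to 2533 in WT and from 1294 to 2272 in PIGinH11. KCNE3 was highest in subcluster 1 in both libraries, at 530 and 775, and this subcluster had the most digestive enzyme RNA, at 7.52% and 1.87% of UMIs. Subcluster 1 was also the shallowest in both libraries, with medians of 1806 UMIs per nucleus in WT and 769 in PIGinH11. The acinar markers summed to 1980 and 2996 CPM in it, whereas they were highest in subcluster 6, at 5845 and 6510 CPM, where KCNE3 was at 329 and 292 CPM. Ductal subcluster 5, led by PDE7B, COL4A4 and COL4A3 among others, had nearly equal SLC4A4 in WT and PIGinH11 (21018 and 20949) and the smallest SCTR difference among these 6 (-0.16, -0.32 to 0.00). Among the joint clusters, cluster 15, with 168 WT and 85 PIGinH11 nuclei and with COL4A3, COL4A4, LGR5 and KRT7 among its leading genes, was the only one in which SCTR was higher in PIGinH11, at 2474 and 2896 CPM (log2 ratio 0.23, 0.06 to 0.39). Its SLC4A4 level, 12954 and 12417 CPM, was well below the 28562 and 22730 of joint cluster 4, which holds most ductal-like nuclei.

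Within ductal-like nuclei thinned to equal UMI totals, joint detection of the 4 genes was close to the product of their separate shares. At 500 UMIs per nucleus, all 4 were found together in 6.23% of WT nuclei (5.24 to 7.33, 134 of 2152) and in 1.82% of PIGinH11 nuclei (1.31 to 2.48, 40 of 2193). The product of the 4 separate shares was 6.79% and 2.01%, within both intervals. For each of the 6 pairs, the share with 1 gene was compared between nuclei with and without a UMI of the other, and the intervals overlapped for 6 of 6 pairs in both libraries. CFTR, for example, was found in 54.5% of WT nuclei with SCTR (51.9 to 57.1) and in 56.9% of those without (53.2 to 60.6). In PIGinH11 these shares were 16.0% (14.0 to 18.3) and 16.9% (14.7 to 19.3). The pair furthest from the product was CFTR with KCNE3 in PIGinH11, found together in 3.42% of nuclei against a product of 3.90%. Comparisons with nuclei lacking SLC4A4 rested on only 12 WT and 22 PIGinH11 nuclei. SLC4A4 was found in 99.4% of WT and 99.0% of PIGinH11 nuclei at this depth, so pairs with it could hardly depart from the product. The median thinned nucleus held at most 1 UMI of CFTR, SCTR or KCNE3, so a weak link between these genes could be missed.

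Without thinning, the genes were found together more often than the product. All 4 genes were then found together in 60.3% of WT and 15.5% of PIGinH11 ductal-like nuclei, above the products of 56.9% and 11.4%, and the intervals were apart for 3 of 6 pairs in each library. At 1000 UMIs per nucleus, which 2013 WT and 1127 PIGinH11 nuclei reached, the shares with all 4 genes were 21.8% and 9.49%, close to the products of 20.6% and 9.10%, and 1 of 6 pairs had intervals apart in WT and 0 of 6 in PIGinH11. That WT pair was CFTR with SLC4A4, and it rested on only 5 nuclei without SLC4A4 (0% with CFTR, 0 to 52.2%). In acinar-like nuclei at 500 UMIs, 71.7% of WT and 71.9% of PIGinH11 nuclei had a UMI of none of the 4 genes, and 0 of 8440 and 0 of 9040 had all 4. This allows up to 0.0356% and 0.0332% of nuclei with a UMI of all 4 genes at this depth, at which most ductal-like nuclei do not show all 4 either.

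**Figure D4:**
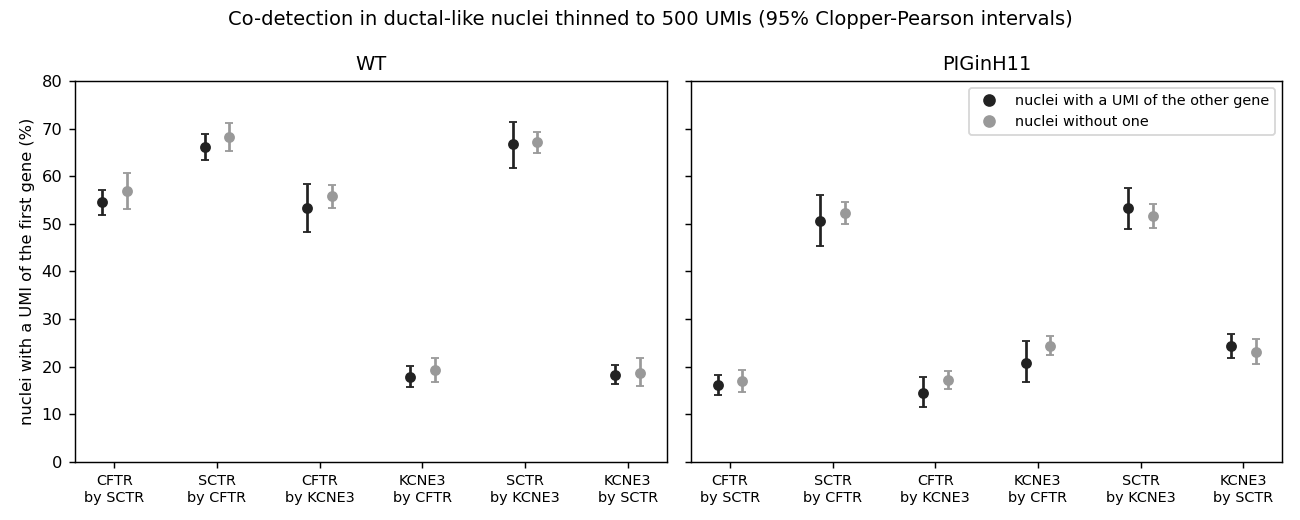
For WT (left) and PIGinH11 (right) ductal-like nuclei thinned to 500 UMIs, the share of nuclei with a UMI of the first gene (vertical axis, percent) is plotted for nuclei with (black) and without (grey) a UMI of the other gene, with 95% Clopper–Pearson intervals as bars. Black and grey intervals overlap in every pair drawn, as for CFTR by SCTR in WT (54.5% and 56.9%). Pairs with SLC4A4 are not drawn.

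The wider machinery of ductal secretion was read from a list of 75 genes, of which 65 were in the matrices and 41 had at least 50 UMIs in ductal-like nuclei. The other 24 were too low to be compared. They include the apical exchangers SLC26A3, SLC26A6 and SLC26A9, the calcium-activated chloride channel ANO1 and the water channels AQP1 and AQP5, each with 31 UMIs or fewer in both libraries together. Of the 41, 6 were at least 2-fold lower in PIGinH11 and 2 at least 2-fold higher (14.6% and 4.88%, against 2.84% and 10.5% of all genes), and the median log2 ratio was -0.11, against 0.12 over all genes. These counts depended on the processing, with 14 lower and 15 higher after subtraction of free RNA, and 2 lower and 1 higher with a limit of 1300 UMIs per nucleus. In addition, the ductal-like level of 10 of the 41 (24.4%) was at least 4-fold the acinar-like level in both libraries. This size was reached by 5.51% of 17099 genes, which needed 50 UMIs in ductal-like and acinar-like nuclei together. The 41 needed 50 UMIs in ductal-like nuclei alone, which leaves out genes low there, so these shares are not directly comparable.

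Among signalling genes, PDE3A, a phosphodiesterase that breaks down cyclic AMP, was strongly ductal. It was at 2645 CPM in WT and 1149 in PIGinH11 (log2 ratio -1.20, -1.25 to -1.15), and it was 63.2- and 35.0-fold higher than in acinar-like nuclei. The adenylyl cyclase gene ADCY5 was also ductal (45.0 and 32.2, log2 ratio -0.48). The adenosine receptor gene ADORA2B was at least 2-fold higher in PIGinH11 but rested on 34 and 29 UMIs (1.14, 0.38 to 1.90). Its ductal-like levels, 3.95 and 8.74, were below the acinar-like 6.29 and 10.2. Of the chloride channels, CLCN2 was 18.2- and 12.0-fold higher than in acinar-like nuclei, at 20.1 and 15.7 CPM.

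Among genes of the basolateral side, ATP1B1, which encodes a beta subunit of the sodium pump, had 386 CPM in WT and 170 in PIGinH11 (log2 ratio -1.18, -1.31 to -1.05). ATP1B1 had a like ratio of levels in acinar-like nuclei, at 104 and 45.5, so its difference was not confined to ductal-like nuclei. The carbonic anhydrase genes CA2 and CA12 differed in opposite directions. CA2, the cytosolic enzyme, was at 33.1 and 13.9 (-1.26, -1.74 to -0.80). CA12, a membrane-bound enzyme, was at 231 and 457 (0.98, 0.89 to 1.08), and both intervals exclude 0. In acinar-like nuclei CA2 was at 26.0 and 24.4, above its ductal-like level in PIGinH11, and CA12 was at 53.7 and 73.55. The cotransporter gene SLC4A5 was higher in PIGinH11, at 2.21 and 10.8, on 19 and 36 UMIs (log2 ratio 2.30, 1.46 to 3.18). Its acinar-like levels were 5.06 in WT and 6.71 in PIGinH11.

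Among potassium channel genes, KCNQ1, whose protein pairs with that of KCNE3, was nearly equal in both libraries, at 1338 and 1385 CPM (log2 ratio 0.05, -0.00 to 0.10). It was less restricted to ducts than KCNE3, since acinar-like nuclei had 562 and 572. KCNE1 and KCNE4, other subunit genes of the KCNE family, had 2 and 0 UMIs in ductal-like nuclei of both libraries together. The inward rectifier genes KCNJ15 and KCNJ16 and the channel gene KCNK5 were ductal and lower in PIGinH11, with log2 ratios of -0.76, -0.80 and -1.06. Of regulators, AHCYL1, which encodes the regulator IRBIT of bicarbonate transporters, was 10.3-fold higher than in acinar-like nuclei in both libraries and nearly equal between them (732 and 701). The sodium channel subunit gene SCNN1A was at 12.8 and 5.72 (-1.16). TFF2, a mucus-associated peptide gene, was lower in PIGinH11 (334 and 91.0, log2 ratio -1.88), but it was higher in acinar-like nuclei of both libraries (606 and 220) than in ductal-like nuclei.

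**Figure D5:**
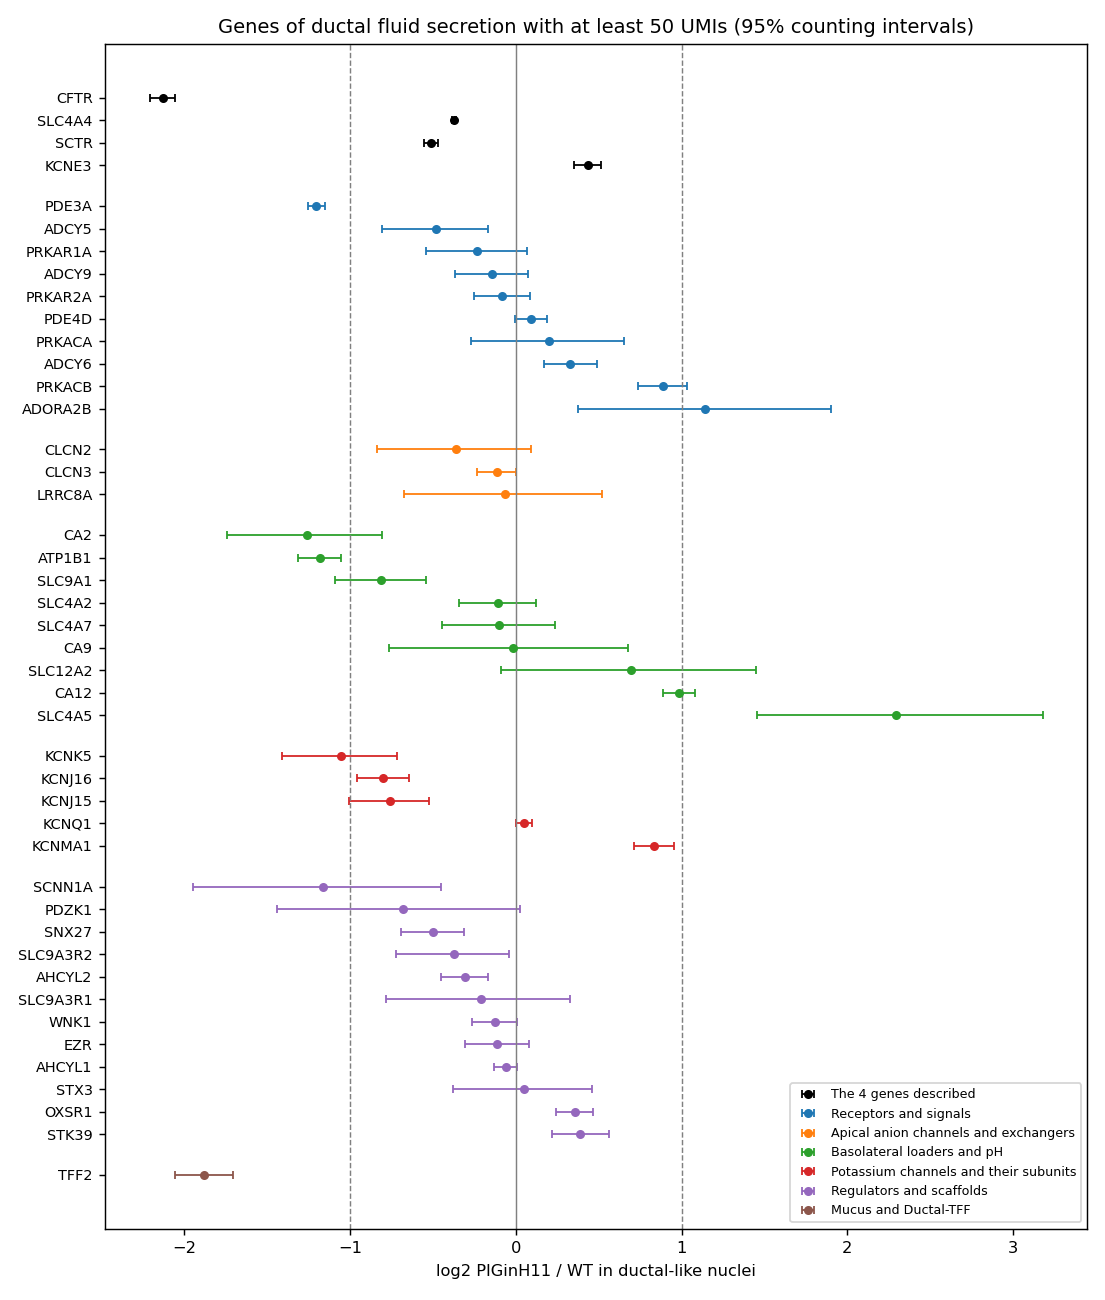
The log2 ratio of PIGinH11 over WT in ductal-like nuclei (horizontal axis) is plotted for the 4 genes (black) and 40 of the 41 other secretion genes with at least 50 UMIs, coloured by role, with 95% counting intervals as bars and dashed lines at 2-fold. CFTR (-2.13) is the lowest point of all, followed by TFF2 (-1.88), and the widest interval belongs to SLC4A5 (2.30).

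The genes most like each member in their pattern were found by correlating log2 levels over 26 points, from 13 classes in 2 libraries, among 11985 genes. Points of a library share its depth and free RNA, so the coefficients are descriptions. For SLC4A4 they included PKHD1 (r = 0.97), MMD (0.95), PPARGC1A (0.91) and AHCYL1 (0.91). For SCTR they were PPARGC1A (0.91), ROS1 (0.90), PKHD1 (0.85), EFHC2 (0.83) and SLC4A4 (0.82), and for KCNE3 PKHD1 (0.90), SLC4A4 (0.87), FTCD (0.87), PPARGC1A (0.86) and FGFR2 (0.85). CFTR had weaker companions, which were FGFR2 (0.80), KNG1 (0.77), SLC47A2 (0.76), PAPSS1 (0.75) and FTCD (0.74). SLC4A4 was in place 10 for CFTR (0.73), whereas it was in place 2 for KCNE3 and in place 5 for SCTR.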

How the data were processed

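Nuclei from the pancreas of 1 WT and 1 PIGinH11 pig were measured. The authors deposited raw UMI counts per gene and barcode, aligned to Sscrofa11.1 and counted with Cell Ranger, before doublet removal and filters. The labels give v3.1.0, with Seurat v3.1.1 for later steps, and the file header gives v5.0.0. The matrices list 31908 genes. For 15410 the files give no symbol, and the reference annotation supplied 841 of the names.

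A barcode was kept when it had between 270 and 3700 genes, its UMIs were below 13000, and its mitochondrial share was under 10%. The study's methods print another UMI limit, which is an alternative here. DoubletFinder was not available, so Scrublet scores (scanpy v1.11.5) removed 0.8% for each 1000 barcodes (1484 in WT and 1791 in PIGinH11). Clustering used 2000 variable genes without 69 secretion genes, 60 ribosomal protein genes and 13 mitochondrial genes, 30 principal components, Harmony written in numpy and Louvain at resolution 1 (igraph v0.11.9, seed 0). A cluster was named from at least 3 markers of a class. KRT19 was not used. Levels (CPM) are sums over the nuclei of a class in a library, relative to that sum for all genes. Intervals (95%) were exact Poisson for levels, Clopper–Pearson for shares and conditional binomial for ratios. A count of 0 was given the limit of 3 counts. PCR and capture errors are not covered. Thinning drew 500 UMIs per nucleus without replacement, and no ductal-like nucleus was shallower. Correlations used log2 of CPM plus 5, for genes with at least 100 UMIs over all classes. The steps were tested on simulated data.

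No test between groups was made with 1 library per group. The 4 genes, the marker lists and the list of secretion genes were chosen with earlier results of these data known. Genes named from the list, except a gene that is not reported here, are those past 2-fold between the libraries or at least 4-fold higher than in acinar-like nuclei in both libraries. KCNQ1, KCNE1, KCNE4, LGR5, KRT7 and the genes too low to compare were named after their values were seen. The alternatives were 2 doublet settings, a minimum of 500 genes, UMIs limited to 1300, clustering without Harmony, resolution 2, all genes in the clustering, ductal-like nuclei without acinar-like subclusters, 2 other denominators, the mean over nuclei, thinning and subtraction of free RNA. Averaging over 4 depth ranges and leaving out shared barcodes or ductal subcluster 7 were added after seeing the data.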

Additional observations from a re-analysis of the deposited data

Results flagged for a closer look

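In ductal-like nuclei SLC4A4 and SCTR were lower in PIGinH11 than in WT, but in some other classes their log2 ratio of PIGinH11 over WT was above 0 with an interval that excluded 0. For SLC4A4 the ratio was 0.09 in acinar-like and 0.33 in endothelial-like nuclei. For SCTR it was 0.87 in endothelial-like and 0.93 in stellate-like nuclei. In those classes the levels were at most 4.06% of the ductal-like level of the same library. Within the endothelial-like class, with all nuclei counted, both genes were higher in PIGinH11 only in joint cluster 13, which had 65 WT and 257 PIGinH11 nuclei. There SLC4A4 was at 941 CPM in WT and 1421 in PIGinH11, and SCTR was at 54.7 and 115. In joint cluster 9, SLC4A4 was at 573 and 406.5 CPM, and SCTR was at 27.7 and 24.9, on 23 and 18 UMIs. In joint cluster 13 of WT, 2 nuclei held 63.2% of SLC4A4 and 86.7% of SCTR UMIs. Without the 2 highest nuclei of each library, SLC4A4 there was at 362.5 and 1222 CPM, and SCTR at 7.63 and 92.5. In joint cluster 9, SCTR was then at 14.6 in WT and 19.5 in PIGinH11, so its order there was not stable. Clusters kept outside the classes had larger ratios. Endocrine cluster 3, which matched acinar markers best, had 1.16 (0.66 to 1.70) for SLC4A4. Unnamed cluster 10 had 1.06 (0.75 to 1.35) for SLC4A4 and 2.29 (1.21 to 3.28) for SCTR. The levels in these clusters were at up to 6.20% of the ductal-like level. With 1 library per group, the difference between classes was not tested.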

How the results depend on the processing

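No paired analysis was possible because each group has 1 library. The direction of all 4 log2 ratios of PIGinH11 over WT in ductal-like nuclei was kept under each of 16 alternatives. The ranges were -2.31 to -1.94 for CFTR, -0.53 to -0.078 for SLC4A4, -0.66 to -0.15 for SCTR and 0.20 to 0.54 for KCNE3. The depth alternative is a mean over ranges, and KCNE3 was reversed in nuclei with 2000 to 4000 UMIs (-0.20, -0.37 to -0.02). Values outside the counting interval of the main value were as follows, and the cause was not tested. Thinning, which equalises the UMIs counted per nucleus, and depth ranges, which compare nuclei of like depth, moved SLC4A4 in opposite directions. For CFTR, the ratio was -2.05 with a UMI limit of 1300, -2.28 with median-of-ratios scaling, -2.29 as the mean over nuclei, -2.31 when thinned to 500 UMIs and -1.94 as the mean of 4 depth ranges. For SLC4A4, it was -0.48 without doublet removal, -0.19 with the limit of 1300, -0.34 with a gene minimum of 500, -0.29 in the core ductal-like nuclei, -0.52 with median-of-ratios scaling, -0.41 without enzyme, ribosomal protein and mitochondrial genes in the denominator, -0.51 as the mean over nuclei, -0.53 when thinned, -0.42 after subtraction of free RNA and -0.078 over depth ranges. For SCTR, it was -0.61 without doublet removal, -0.15 with the limit of 1300, -0.66 with median-of-ratios scaling, -0.44 as the mean over nuclei, -0.57 after subtraction of free RNA and -0.44 over depth ranges. For KCNE3, it was 0.33 without doublet removal, 0.53 with the limit of 1300, 0.28 with median-of-ratios scaling, 0.54 as the mean over nuclei, 0.33 after subtraction of free RNA and 0.20 over depth ranges. Median-of-ratios scaling removed a shift of 0.15. The limit of 1300 left 279 WT and 1365 PIGinH11 ductal-like nuclei.

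Secretion genes at least 2-fold lower numbered 2 with the limit of 1300 and 14 after subtraction of free RNA, against 6. Those at least 2-fold higher numbered 1 with the limit of 1300, with median-of-ratios scaling and when thinned, and 15 after subtraction, against 2. The share of ductal-like nuclei with all 4 genes was 21.8% in WT and 9.49% in PIGinH11 at 1000 UMIs and 60.3% and 15.5% unthinned, where more UMIs per nucleus are counted by construction. In both libraries, all 4 genes exceeded their acinar-like level at least 4-fold in ductal-like nuclei under 15 of 15 alternatives. The PIGinH11 library, shallower in nearly every class, limits what can be said of low genes.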
